A study of Homo sapiens with 12 samples.

Results

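Transcript levels of 37 oxygen-regulated genes outside glycolysis were followed in C4-2B and 22RV1 prostate cancer cells grown with or without the oligonucleotide 56-mer (written 56 mer in the labels). The 37 genes were taken by symbol from a list of genes that the hypoxia-inducible factors are known to control, together with the factor HIF1A itself, and all 37 were among the 60314 named entries of each deposited table. The series was designed around an aptamer, a folded nucleic acid made to bind a target, that its title links to the response of prostate cancer to hormone therapy. C4-2B is a castration-resistant derivative of the LNCaP line, and 22RV1 is a castration-resistant line from another prostate cancer. Cells of both lines, labelled wild type, were kept in glutamine-free RPMI medium with 5% fetal bovine serum with L-glutamine given at 2 mM for 48 h. The control groups received nothing further, and the 56-mer groups also received the aptamer at 50 nM for 48 h. Each of the 4 groups held 3 libraries, called biological triplicates in the series text, with nothing said of separate culture days, so p-values measure the spread between these 3 libraries. Each line is a single cell line, no group with an unrelated oligonucleotide was analysed here, and the labels name no oxygen level.

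Cells sense oxygen through prolyl hydroxylases (EGLN proteins) that use molecular oxygen to mark the alpha subunit of the hypoxia-inducible factor for destruction by the VHL ubiquitin ligase. When oxygen is short, or the hydroxylases are inhibited, the alpha subunit accumulates, pairs with ARNT and binds a short core sequence near its target genes. The targets outside glycolysis slow mitochondrial oxidation, remove mitochondria, store lipid, export acid, modify collagen and demethylate histones, and several of them, such as CA9, serve as tissue markers of low oxygen in solid tumours.

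The core sequence bound by the factor, ACGTG or GCGTG read on either strand, was searched in RefSeq promoter windows of 300 bases, from 250 before to 50 after each gene start (GRCh38.p14). Windows existed for 30 of the 37 genes, 42 windows in all, and 35 of the 42 windows (83.3%, from 26 genes) held at least 1 of the motifs, against 48.5% of all 35116 windows. Among windows with a GC content of at least 60%, the shares were 94.4% of 36 member windows and 64.9% of 16447 windows. The motif ACGTG alone stood in 59.5% of the member windows and in 21.4% of all windows, and GCGTG in 57.1% and 36.5%. The windows of EGLN3, P4HA2, RORA and TMEM45A held neither string. The stretches around the matches of 6 genes whose levels or changes are described in detail were, 5′ to 3′ along the gene, with the motif letters in capitals (CACGT and CACGC are the same motifs on the other strand, and CACGTG holds ACGTG on both strands):
BNIP3: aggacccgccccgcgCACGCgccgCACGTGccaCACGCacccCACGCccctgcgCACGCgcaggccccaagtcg
WSB1: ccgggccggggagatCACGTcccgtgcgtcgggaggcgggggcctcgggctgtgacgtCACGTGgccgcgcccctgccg
PFKFB3: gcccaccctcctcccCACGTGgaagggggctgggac
BHLHE40: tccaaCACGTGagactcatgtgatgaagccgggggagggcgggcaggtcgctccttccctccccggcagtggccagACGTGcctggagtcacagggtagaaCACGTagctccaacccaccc
CA9: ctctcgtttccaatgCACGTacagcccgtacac
FAM162A: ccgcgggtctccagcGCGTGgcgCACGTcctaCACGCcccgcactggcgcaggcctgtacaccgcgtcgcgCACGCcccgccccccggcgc
These lie at chr10:131982008-131982081 on the minus strand for BNIP3 and, on the plus strand, at chr17:27293998-27294076 for WSB1, chr10:6202809-6202844 for PFKFB3, chr3:4979187-4979307 for BHLHE40, chr9:35673895-35673927 for CA9 and chr3:122384075-122384165 for FAM162A. The BNIP3 stretch, 85 to 158 bases before the gene start, held 6 matches counted over both strands, the BHLHE40 stretch held 4 and the CA9 stretch, within 33 bases of the start, held 1. The genes were listed as known targets of the factor, so a higher share than in all windows is no independent result. Windows of the same gene can overlap and hold the same match, as for KDM3A, INSIG2 and LOX. Each printed stretch comes from a window picked because it held ACGTG. A match is a description of the letters and was not tested as a site of binding.

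Libraries held 8847368 to 13740386 reads. Genes with at least 1 read numbered 20779 to 22686 per C4-2B library and 28342 to 31010 per 22RV1 library. What this does to levels set side by side between the lines was not tested. The luminal markers of prostate cancer cells were present in both lines: the summed level of 10 markers was 3611 to 3794 RPM (reads scaled to 1000000 per library) in C4-2B and 3682 to 3894 in 22RV1, and none of the 10 was at 0 in any library. The 17 leukocyte, endothelial and fibroblast markers together summed to 45.1 to 71.1 RPM in the C4-2B libraries and 31.8 to 46.5 in those of 22RV1. Of these, CD3E and KDR were at 0 in all 12 libraries. COL1A1 was present in all 12, at 21.79 to 35.35 RPM in C4-2B and 19.72 to 29.45 in 22RV1. VWF (7.34 to 19.68 RPM) and CD68 (6.38 to 19.03) were present in every C4-2B library, and reached at most 0.668 and 2.71 in 22RV1. The C4-2B 56-mer library 1 stood apart from its replicates. The chi-square per gene between the reads of 2 libraries was 13.4 and 15.5 for its pairs and 7.06 for the remaining pair. Its log2 deviation from the line mean had a Spearman rho of -0.33 with transcript length across genes, where the other C4-2B libraries lay between -0.10 and 0.25. The same coefficient with GC content was -0.18, 0.30 and 0.32 in the C4-2B 56-mer libraries and -0.20, -0.0049 and -0.21 in their controls. In 22RV1 this coefficient was -0.58, 0.17 and 0.38 in the 56-mer libraries and 0.12, -0.14 and 0.30 in the controls. The 22RV1 56-mer library 1 thus had the strongest skew with GC content of all 12 libraries. Its pairs had a chi-square per gene of 6.54 and 9.12, against 4.02 for the remaining pair. The members tested in C4-2B had a median GC content of 43.8%, against 49.3% for all genes tested there. Their median transcript length was 3859 bases, against 3052 for all genes tested. Some changes are therefore also given after a correction for GC content and length (corrected values).

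In untreated cells most of the oxygen-regulated genes stood higher in C4-2B than in 22RV1. Levels are given here as RPM, computed from the reads behind the authors' values, because the authors normalized each line separately, and they are set side by side with no test. Of the 37 genes, 25 had a higher control mean in C4-2B and 12 in 22RV1. By comparison, 41.2% of the 15527 genes measured in both lines were higher in C4-2B. A difference of at least 5-fold was seen for 8 of the 37 genes toward C4-2B and for 4 toward 22RV1, against 2.38% and 8.04% of the 15527 genes. The 8 include CA9 and the 4 include ADM. Neither gene is among the 15527, because CA9 was too low in 22RV1 and ADM too low in C4-2B. The percentages leave out genes too low in either line and the counts of the 37 do not, so the comparison is not like for like. Toward 22RV1 the share of the members was near the 8.04% of all genes, so the genes on that side are described singly.

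**Figure D1:**
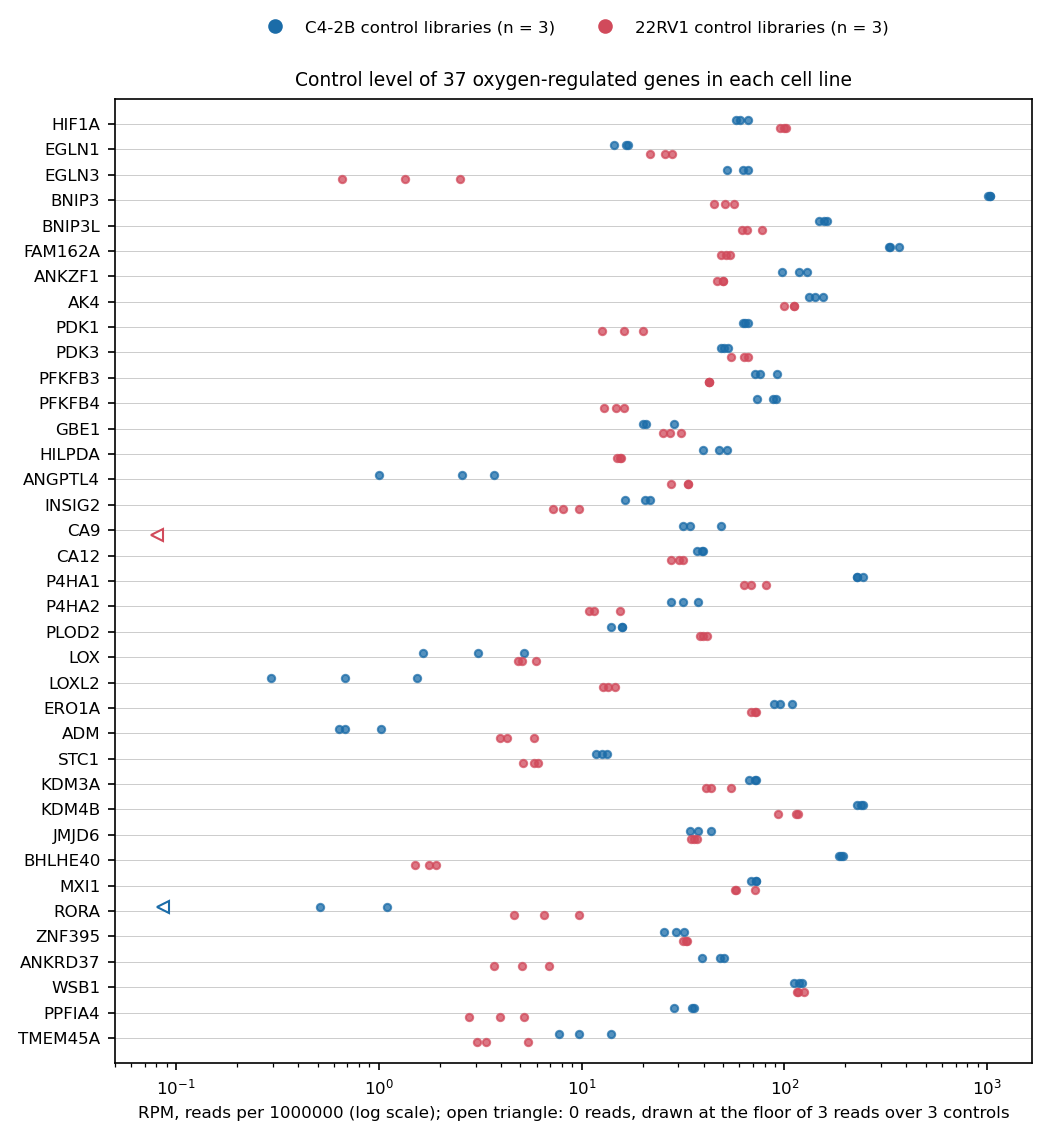
RPM (log scale) of the 37 genes in each of the 3 control libraries of C4-2B (blue) and 22RV1 (red), ordered by role; an open triangle is a library with 0 reads, drawn at the level of 3 reads over the 3 controls. BNIP3 (1024 ± 16.7 against 50.9 ± 5.98), BHLHE40, EGLN3 and CA9 lie far to the right in C4-2B, whereas LOXL2, ANGPTL4, RORA and ADM lie to the right in 22RV1.

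The gap was widest for CA9, a membrane carbonic anhydrase that acidifies the space outside the cell. CA9 had 38.2 ± 9.26 RPM (mean ± SD, n = 3) in C4-2B controls and 0 reads in every 22RV1 control, at least 476-fold lower when 3 reads over the 3 libraries (0.0802 RPM) are taken as the floor. CA9 shares 38.5% of its exonic bases with the opposite-strand gene ARHGEF39, which was present in both lines (at a mean normalized count of 1182 in C4-2B cells, and 374.8 in the 22RV1 cells), and whether counting used strand is not given in the sources used here. BHLHE40, a repressor of the basic helix-loop-helix family, stood at 191 ± 4.64 RPM in C4-2B and 1.73 ± 0.209 in 22RV1, a 110.2-fold difference. EGLN3, a prolyl hydroxylase that is itself induced by the factor it marks, stood at 60.3 ± 7.08 and 1.51 ± 0.931. Its pseudogene reached 22.2% of its value in a 22RV1 library and was at 0 in C4-2B. CA9 was thus at the floor in the 22RV1 controls, and BHLHE40 and EGLN3 were low there but above it.

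BNIP3, a mitophagy receptor of the outer mitochondrial membrane, stood at 1024 ± 16.7 RPM in C4-2B and 50.9 ± 5.98 in 22RV1, 20.1-fold apart. BNIP3 has many processed pseudogenes, and the 39 listed ones summed to as much as 46.1% of the BNIP3 value in a 22RV1 library but at most 0.586% in C4-2B, so the 22RV1 level is the less certain. FAM162A, another mitochondrial protein, stood at 342 ± 20.8 and 51.3 ± 2.64, and PFKFB4, which makes and breaks the fructose bisphosphate that drives phosphofructokinase, at 84.01 ± 9.39 and 14.6 ± 1.59. ANKRD37, an ankyrin repeat protein that shares 35.2% of its exonic bases with UFSP2 on the other strand, stood at 45.99 ± 5.74 and 5.24 ± 1.61, and PPFIA4, a liprin, at 33.1 ± 3.86 and 3.98 ± 1.20. All of these were more than 5-fold higher in the C4-2B controls.

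The genes with the opposite order were ANGPTL4, LOXL2, RORA and ADM. ANGPTL4, a secreted inhibitor of lipoprotein lipase, had 2.43 ± 1.36 RPM in C4-2B and 31.6 ± 3.31 in 22RV1 (13.01-fold). LOXL2, a lysyl oxidase that crosslinks collagen, had 0.842 ± 0.642 and 13.6 ± 0.997 (16.2-fold). RORA, an orphan nuclear receptor, had 0.536 ± 0.547 and 6.94 ± 2.55, and ADM, the precursor of the vasodilator peptide adrenomedullin, had 0.783 ± 0.213 and 4.70 ± 1.01. HIF1A itself was 1.61-fold higher in 22RV1 (61.4 ± 4.21 in C4-2B and 98.8 ± 3.15 in 22RV1), and EGLN1, the main hydroxylase for it in most cells, was 1.58-fold higher there (15.99 ± 1.33 and 25.2 ± 3.15). The line with more transcript of the factor and of EGLN1 was the line with less of BNIP3, CA9 and EGLN3. WSB1 stood at 117 ± 5.01 and 119 ± 5.22 RPM, with overlapping libraries.

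Per kilobase of exon the order of the members also differed between the lines. In C4-2B controls BNIP3 led with 192 ± 3.14 RPM per kilobase (above 99.1% of detected genes), followed by FAM162A with 90.3 ± 5.47, P4HA1 with 75.6 ± 3.13 and BHLHE40 with 49.7 ± 1.21, and the SDs of these 4 neighbours did not reach each other. In 22RV1 controls P4HA1 led with 23.01 ± 3.09, followed by HIF1A with 19.2 ± 0.611 and BNIP3L with 15.9 ± 1.92. BNIP3 ranked 10 there with 9.57 ± 1.12, next to ERO1A with 9.40 ± 0.277, which lay within its SD. P4HA1, the catalytic subunit of collagen prolyl hydroxylase, was thus among the leading members of both lines.

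With 56-mer, most of the oxygen-regulated genes had lower means in C4-2B and were evenly split in 22RV1, but no member passed the test in either line. The test was limma on log2 of the normalized count plus 1 over all genes that reached a normalized count of 10 in 3 or more of a line's 6 libraries, with Benjamini-Hochberg adjustment and a threshold of 0.05, and a log2 change is 56-mer minus control on that scale. In C4-2B 36 of the 37 genes were tested, all but ADM, and 0 were called, against 0.066% of all 16657 genes (11 genes). The mean was lower with 56-mer for 28 of the 36 and higher for 8, against 51.7% lower among all genes tested, and the median log2 change was -0.17, against -0.01 for all genes. An unadjusted limma p under 0.05 was reached by 9 of the 36, all lower, against 4.03% of all genes on that side and 4.89% on the higher side. These 9 were HIF1A, BNIP3, BNIP3L, PFKFB3, PFKFB4, INSIG2, KDM3A, BHLHE40 and WSB1. All 3 libraries with 56-mer lay below all 3 controls for 14 of the 36, against 7.08% of all genes, and above all controls for 0, against 7.59%. In bulk RNA, a lower level in every cell and fewer cells that hold the transcript cannot be told apart.

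The lower values were shared by the 3 C4-2B libraries with 56-mer. Relative to the control mean, 25, 26 and 28 of the 36 genes were lower in 56-mer libraries 1, 2 and 3, with median log2 differences of -0.09, -0.15 and -0.24, where 47.8% to 49.1% of all genes tested were lower. Single controls had 11, 22 and 17 of the 36 below the same mean, of which they are themselves part, with medians of 0.05, -0.03 and 0.0040. Without 56-mer library 1, 27 of 34 tested members were lower with a median of -0.18, 16 had all 56-mer values below all controls (13.3% of all genes in the same 5 libraries), and BNIP3, WSB1 and HIF1A passed the test, among 81 genes called in all (0.496%). After the correction for GC content and transcript length, 27 of 36 were lower, the median was -0.12 and BNIP3 passed the test (log2 change -0.29, limma adjusted p = 0.016), among 20 genes called (0.125%). An unadjusted limma p under 0.05 was then reached by 9 members, of which 8 were lower, so not all were on the lower side. The edgeR quasi-likelihood test on the recovered reads called 0 members and 0 genes, and DESeq2 called 42 genes (0.252%), BNIP3 and WSB1 among them. DESeq2 gave no adjusted p for 26 of the 36 members, which could therefore not be called, nor for 85.3% of all genes.

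In 22RV1 36 of the 37 genes were tested, all but CA9, and 0 were called, against 0.00975% of all 20517 genes (2 genes). The mean was lower for 19 and higher for 17, against 50.6% lower among all genes tested, and the median log2 change was -0.02, against -0.0026 for all genes. An unadjusted limma p under 0.05 was reached by CA12 and BHLHE40, both higher with 56-mer, against 1.76% of all genes on that side, and by 0 members on the lower side, against 2.15%. The groups did not overlap for CA12, ADM and BHLHE40, all higher, and for LOX, lower, against 4.45% and 4.58% of all genes. DESeq2 and edgeR on the recovered reads also called 0 members in this line.

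**Figure D2:**
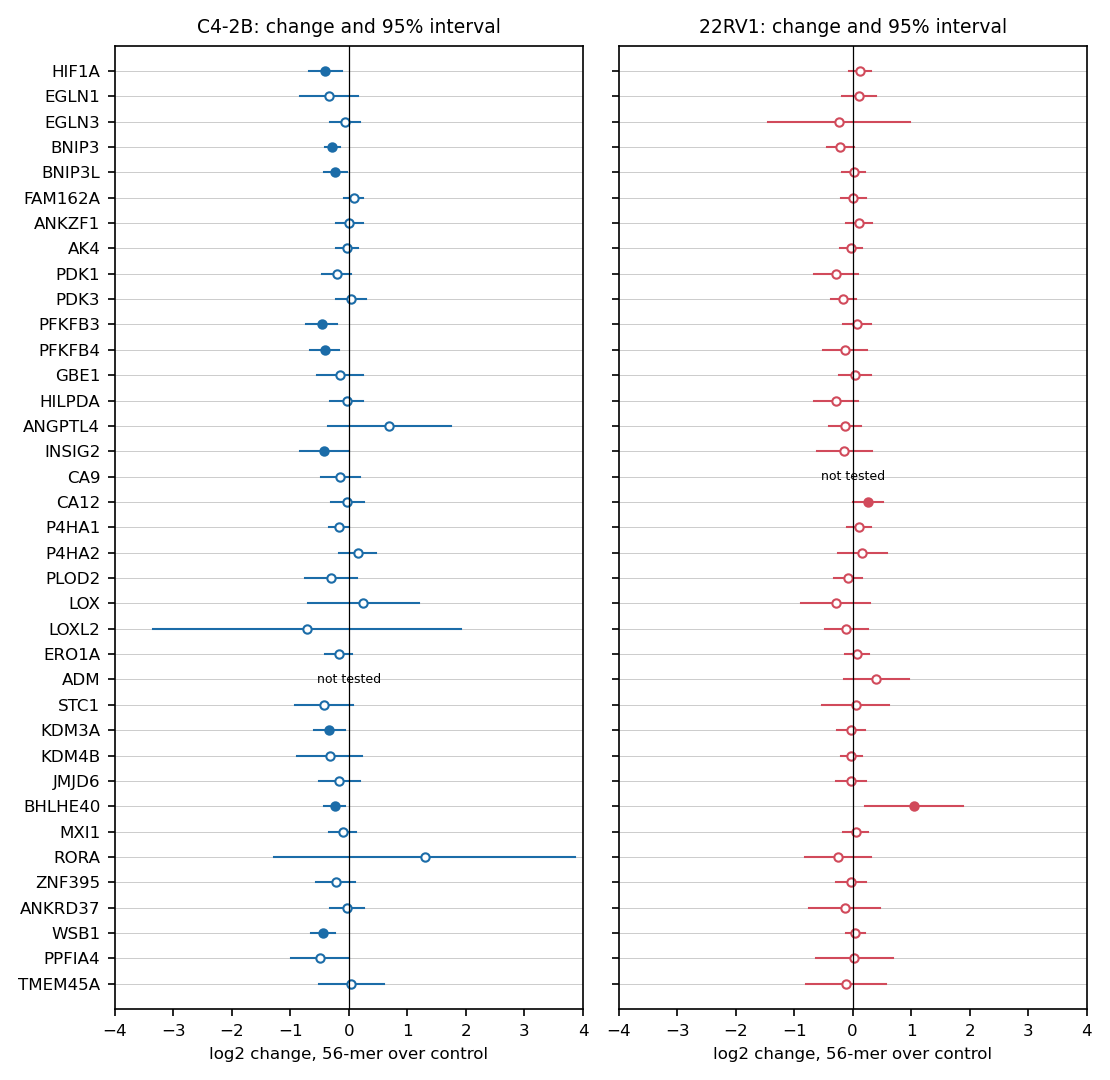
Log2 change with 56-mer over control and its 95% interval from limma for each of the 37 genes in C4-2B (left) and 22RV1 (right), n = 3 libraries per group; a filled point has an unadjusted p under 0.05 and an open point does not. In C4-2B 28 of 36 points lie left of 0, with all 9 filled points among them, whereas in 22RV1 19 of 36 lie left of 0 and the 2 filled points, CA12 and BHLHE40, lie right of it.

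The factor and its sensors, 3 genes, all had lower means with 56-mer in C4-2B (median log2 change -0.34), with 0 called. That median was EGLN1's own change, and it was -0.09 without 56-mer library 1. HIF1A encodes the oxygen-labile subunit, whose protein rather than transcript is the main point of oxygen control. Its normalized counts in C4-2B were 679.9, 772 and 697 in controls and 658, 455 and 529 with 56-mer, so all 3 treated libraries lay below the lowest control, library 1 only slightly. The log2 change was -0.40 ± 0.14 (SE; limma adjusted p = 0.41). It was -0.54 without 56-mer library 1 (limma adjusted p = 0.0464) and -0.29 after the GC and length correction (limma adjusted p = 0.542). In 22RV1 the counts were 1142, 1220.2 and 1189 in controls and 1549.7, 1259.8 and 1105 with 56-mer, and the groups overlapped (log2 change 0.13 ± 0.10). That 22RV1 change was -0.00449 without 56-mer library 1.

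EGLN1 in C4-2B measured 170.2, 198 and 191 in controls and 103, 211 and 145 with 56-mer. Treated library 2 lay above every control and libraries 1 and 3 below, so the groups overlapped. Its log2 change of -0.34 was -0.09 without 56-mer library 1 and -0.60 without library 2. EGLN3 measured 736, 612 and 762 and 663, 739 and 615, with a log2 change of -0.06 (95% interval -0.32 to 0.20). In 22RV1 EGLN1 measured 310.0, 336 and 260.4 in controls and 339, 275 and 364 with 56-mer, again overlapping, and EGLN3 was too low to be informative, at 30.00, 16.2 and 7.92 and 10.7, 20.5 and 10.6.

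Of the 7 mitochondrial genes 4 had lower and 3 had higher means with 56-mer in C4-2B (median log2 change -0.03), with 0 called. The mitophagy receptors BNIP3 and BNIP3L, which recruit the autophagy machinery to mitochondria, were among the lower ones. BNIP3 counted 12104, 11748 and 11975 in C4-2B controls and 10542, 9498 and 9477 with 56-mer. The treated libraries were 1206 counts or more below the lowest control, and both groups were tight (11942 ± 180.2 and 9839 ± 609, mean ± SD, n = 3). Its log2 change was -0.28 ± 0.06 (limma adjusted p = 0.105), and of the members it passed the test under the most alternatives: quantile normalization, equal totals, no filter, DESeq2, the GC and length correction, and without 56-mer library 1. In 22RV1 BNIP3 counted 613, 682 and 536 in controls and 492, 522 and 566 with 56-mer, a log2 change of -0.21 ± 0.11 (limma adjusted p = 0.9996) with overlapping groups. Its 2 changes did not differ detectably between the lines (0.07 for 22RV1 minus C4-2B, 95% interval -0.18 to 0.32).

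BNIP3L counted 1904, 1832 and 1703 in C4-2B controls and 1732, 1574 and 1346 with 56-mer, and treated library 1 lay within the range of the controls (log2 change -0.23 ± 0.10, limma adjusted p = 0.509). Its log2 change was -0.14 after the GC and length correction and -0.13 without 56-mer library 3. In 22RV1 it counted 781, 935 and 743 and 860.1, 803 and 812, with the treated libraries inside the control range, and 7.66% of its exonic bases are shared with PNMA2 on the other strand, a gene at a mean of 396.2 normalized counts in 22RV1 and 2.14 in C4-2B. FAM162A, whose promoter stretch also holds several copies of the motif, counted 4306, 3869 and 3808 in C4-2B controls and 4592, 4290.1 and 3832 with 56-mer. Its groups overlapped, and its log2 change of 0.08 (95% interval -0.08 to 0.25) was on the higher side. In 22RV1 FAM162A counted 619.9, 583 and 642 and 595, 638 and 630.1, with no separation.

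PDK1 and PDK3 are kinases that switch off pyruvate dehydrogenase and so keep pyruvate out of mitochondria. PDK1 counted 777, 735 and 739.5 in C4-2B controls and 678, 669.7 and 599 with 56-mer, with all treated libraries below all controls and a log2 change of -0.21 ± 0.12 (limma adjusted p = 0.618). After the GC and length correction the PDK1 change was -0.08 (limma adjusted p = 0.906). In 22RV1 it counted 193, 243 and 151 and 161, 182 and 134, a change of the same sign with overlapping groups (-0.28 ± 0.19). PDK3 had log2 changes of 0.04 in C4-2B and -0.16 in 22RV1. The mitochondrial adenylate kinase AK4 (-0.03 and -0.03) and ANKZF1, a factor of ribosome quality control (0.01 and 0.11), lay near 0 in both lines.

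The bifunctional enzymes PFKFB3 and PFKFB4, which set the level of the activator of phosphofructokinase and stand beside glycolysis rather than in it, had lower means in C4-2B, as did the glycogen branching enzyme GBE1 (median log2 change of the 3 genes -0.42, 0 called). PFKFB3 counted 843, 1074 and 874 in controls and 621, 621 and 777 with 56-mer. All treated libraries were below all controls, and the log2 change was -0.47 ± 0.13 (limma adjusted p = 0.291). PFKFB4 counted 1068, 857 and 1015 and 785, 772 and 643, again with no overlap, and its log2 change was -0.42 ± 0.12 (limma adjusted p = 0.322). After the GC and length correction their log2 changes were -0.46 and -0.44. In 22RV1 the PFKFB3 controls lay within 3.67 counts of each other, at 508, 512 and 508, and the 56-mer libraries at 617, 437 and 567 scattered to both sides. The PFKFB3 log2 change there was 0.07, and -0.03 without 56-mer library 1. PFKFB4 in 22RV1 counted 193, 178 and 155 in controls and 120.4, 184 and 182 with 56-mer, where library 1 alone was below the controls. GBE1 had log2 changes of -0.15 in C4-2B and 0.04 in 22RV1, with overlapping groups, and the former was 0.0086 without control library 1.

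**Figure D3:**
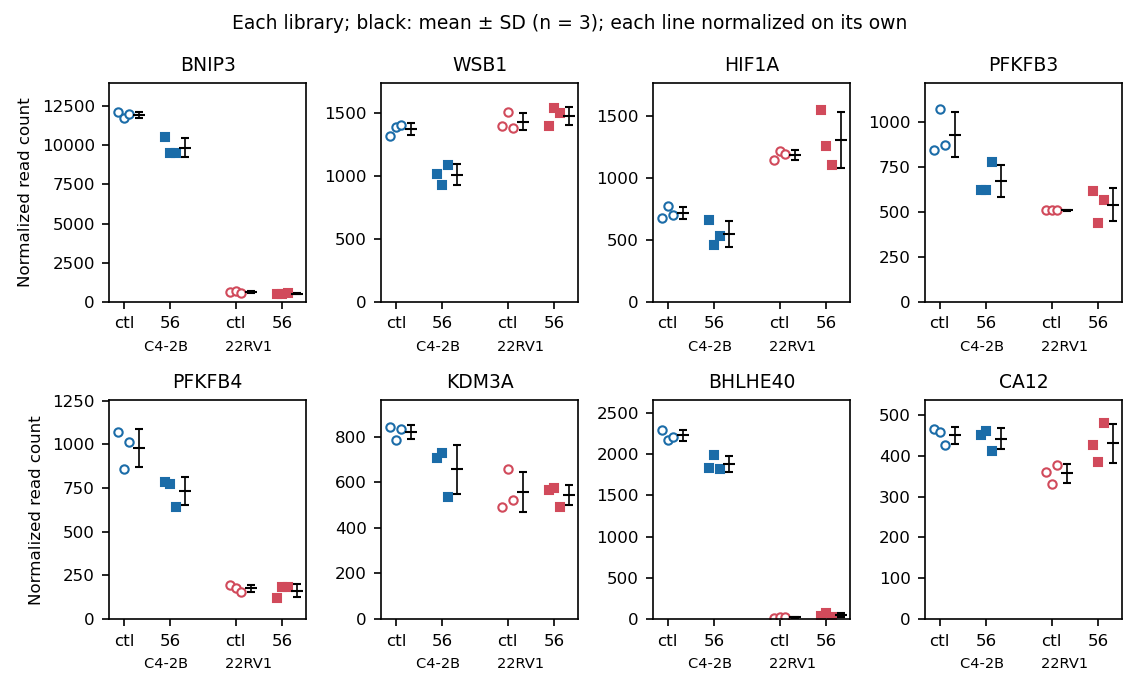
Normalized read counts of 8 members in every library, by line, for control (ctl, open circles) and 56-mer (56, filled squares), with the mean ± SD (n = 3) beside each group; the vertical axes start at 0 and the authors normalized each line on its own. In C4-2B (blue) the treated libraries lie below all controls for each gene except CA12, and in 22RV1 (red) the groups overlap except for BHLHE40 and CA12, where the treated libraries lie higher. Each gene shown had an unadjusted limma p under 0.05 in C4-2B or 22RV1, so the separation seen here is not typical of the members. In C4-2B it held for 14 of the 36 tested members and 7.08% of all genes.

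Of the 3 lipid genes 2 had lower means in C4-2B and 3 in 22RV1, with 0 called. INSIG2, which holds the sterol-sensing complex in the endoplasmic reticulum, counted 255, 241 and 188 in C4-2B controls and 168, 156 and 182 with 56-mer. The highest treated library lay 5.87 counts below the lowest control, and the log2 change was -0.42 ± 0.20 (limma adjusted p = 0.552). In 22RV1 it counted 96.99, 117 and 86.2 and 82.97, 86.1 and 102, with overlap. ANGPTL4 was low and scattered in C4-2B (11.8, 43.3 and 29.6 in controls and 33.3, 52.5 and 38.97 with 56-mer), so that its log2 change of 0.69 had an interval of -0.35 to 1.74. In 22RV1, where it was well measured, it counted 400.0, 403 and 332 and 328, 325 and 382, with overlapping groups. HILPDA, a lipid droplet protein that restrains lipolysis, had log2 changes of -0.04 in C4-2B and -0.28 in 22RV1, both with overlap.

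Both carbonic anhydrases overlapped between the groups in C4-2B, and CA12 alone was tested in 22RV1. CA9 in C4-2B counted 574, 371 and 394 in controls and 435, 365 and 387 with 56-mer. Control library 1 was the highest value and the remaining 5 overlapped, and the log2 change of -0.15 ± 0.16 became 0.05 without that control. In 22RV1 CA9 was listed at 0 in the controls and at 5.35, 0 and 0.884 with 56-mer, too low to be tested. CA12, its paralog at the cell surface, counted 465, 459 and 426 and 452, 462 and 412 in C4-2B, where the groups overlapped (95% interval of the log2 change -0.31 to 0.26). In 22RV1 it counted 361, 332 and 378 in controls and 427, 385 and 479.9 with 56-mer, with the treated libraries all higher (log2 change 0.27 ± 0.13, limma adjusted p = 0.9996).

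Of the 6 enzymes of collagen and of protein oxidation 4 had lower means in C4-2B (median log2 change -0.17) and 3 in 22RV1 (-0.0041), with 0 called. The C4-2B median was -0.08 after the GC and length correction and 0.01 without 56-mer library 2. P4HA1 counted 2681, 2669 and 2829 in C4-2B controls and 2629, 2204 and 2475 with 56-mer. The treated libraries lay below all controls, and the log2 change was -0.17 ± 0.08 (limma adjusted p = 0.58). The P4HA1 change was -0.11 with GC content and length corrected and -0.10 without 56-mer library 2. In 22RV1 P4HA1 counted 978, 757 and 822 and 931, 866 and 938, with overlap. The lysyl hydroxylase PLOD2 also had all treated libraries below all controls in C4-2B (log2 change -0.30 ± 0.22, corrected -0.18), and it measured -0.08 in 22RV1. P4HA2, a further collagen prolyl hydroxylase, lay on the higher side in both lines (0.15 and 0.17, the latter -0.07 without 56-mer library 2), and ERO1A, which drives disulfide formation in the endoplasmic reticulum, measured -0.18 (corrected -0.06) and 0.07. LOX, a lysyl oxidase, had log2 changes of 0.24 ± 0.46 in C4-2B (-0.17 without control library 2) and -0.29 ± 0.29 in 22RV1, where its treated libraries were all below the controls. LOXL2 was near the filter in C4-2B (18.2, 7.98 and 3.39 in controls and 10.8, 0 and 13.6 with 56-mer) and overlapped in 22RV1 (161, 177 and 152 and 146, 153 and 154).

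Each of the secreted hormones was separated between the groups in a different line. ADM was below the filter in C4-2B, at 7.49, 7.98 and 11.9 in controls and 7.84, 0 and 15.6 with 56-mer. In 22RV1 it counted 69.99, 47.7 and 51.03 in controls and 70.5, 77.9 and 73.4 with 56-mer, with the lowest treated library only 0.49 counts above the highest control (log2 change 0.41 ± 0.28, limma adjusted p = 0.9996). The glycoprotein hormone STC1 had all treated libraries below all controls in C4-2B (log2 change -0.43 ± 0.24, limma adjusted p = 0.625) and overlapped in 22RV1 (0.05 ± 0.28).

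The 3 oxygen-dependent dioxygenases that act on chromatin and its proteins all had lower means in C4-2B (median log2 change -0.33), with 0 called. KDM3A, a histone H3 lysine demethylase, counted 844, 784 and 834 in controls and 708, 727 and 534 with 56-mer. All treated libraries lay below all controls, library 3 most, and the log2 change was -0.33 ± 0.13 (limma adjusted p = 0.456). Without 56-mer library 3 the KDM3A change was -0.19 (limma adjusted p = 0.678). In 22RV1 KDM3A counted 493, 656 and 523 and 565, 574 and 492, and the treated libraries lay within the control range or 0.70 counts below it. KDM4B, another histone demethylase, measured -0.33 ± 0.22 in C4-2B, where treated library 1 was far below the remaining 5 and the change was -0.08 without it. JMJD6, a lysyl hydroxylase, measured -0.17 ± 0.17 in C4-2B with overlapping groups, and -0.01 without 56-mer library 2. In 22RV1 KDM4B and JMJD6 measured -0.02 and -0.03.

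Of the 4 transcriptional regulators 3 had lower means in C4-2B and 2 in 22RV1, with 0 called. BHLHE40, whose promoter stretch holds the motif at 3 places, counted 2296, 2174 and 2204 in C4-2B controls and 1834, 1990.0 and 1813 with 56-mer, with no overlap and a log2 change of -0.24 ± 0.08 (limma adjusted p = 0.426). In 22RV1 it counted 18.00, 21.3 and 22.9 in controls and 41.04, 77.9 and 25.6 with 56-mer. There the treated libraries all lay higher, from a level near the filter, and the log2 change was 1.04 ± 0.42 (limma adjusted p = 0.9996), and 0.63 without 56-mer library 2. MXI1, which antagonizes MYC, had all treated libraries below all controls in C4-2B by a small margin (log2 change -0.11 ± 0.11, corrected -0.06) and measured 0.05 in 22RV1. The zinc finger factor ZNF395, which shares 34.9% of its exonic bases with FBXO16 on the same strand, measured -0.23 in C4-2B, also with no overlap, and -0.03 in 22RV1. RORA was near 0 in C4-2B (12.8, 0 and 5.93 and 14.7, 4.77 and 14.6), and in 22RV1 it counted 116, 78.2 and 55.4 in controls and 88.3, 62.9 and 53.9 with 56-mer, with overlap.

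Of the 4 remaining members 3 had lower means in C4-2B and 2 in 22RV1, with 0 called. WSB1, the substrate receptor of a ubiquitin ligase, counted 1315, 1386 and 1405 in controls and 1009.9, 925 and 1088 with 56-mer, so that the highest treated library lay 226.5 counts below the lowest control. The log2 change was -0.44 ± 0.10 (limma adjusted p = 0.155), and it was -0.45 without 56-mer library 1 (limma adjusted p = 0.0252) and -0.35 after the GC and length correction (limma adjusted p = 0.216). In 22RV1 WSB1 counted 1398, 1503 and 1381 in controls and 1397, 1534 and 1495 with 56-mer, and the groups overlapped (log2 change 0.05 ± 0.08). PPFIA4 counted 337, 408 and 413 in C4-2B controls and 174, 382 and 307 with 56-mer, where library 1 was the lowest by far, and its log2 change of -0.49 ± 0.23 shrank to -0.17 without it. In 22RV1 PPFIA4 counted 61.99, 33.5 and 47.5 and 47.3, 56.02 and 39.8. ANKRD37 overlapped in both lines, at 464, 586 and 558 and 599, 531 and 450.1 in C4-2B and 60.99, 44.7 and 82.7 and 51.7, 66.95 and 48.6 in 22RV1, and the membrane protein TMEM45A measured 0.04 and -0.11.

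**Figure D4:**
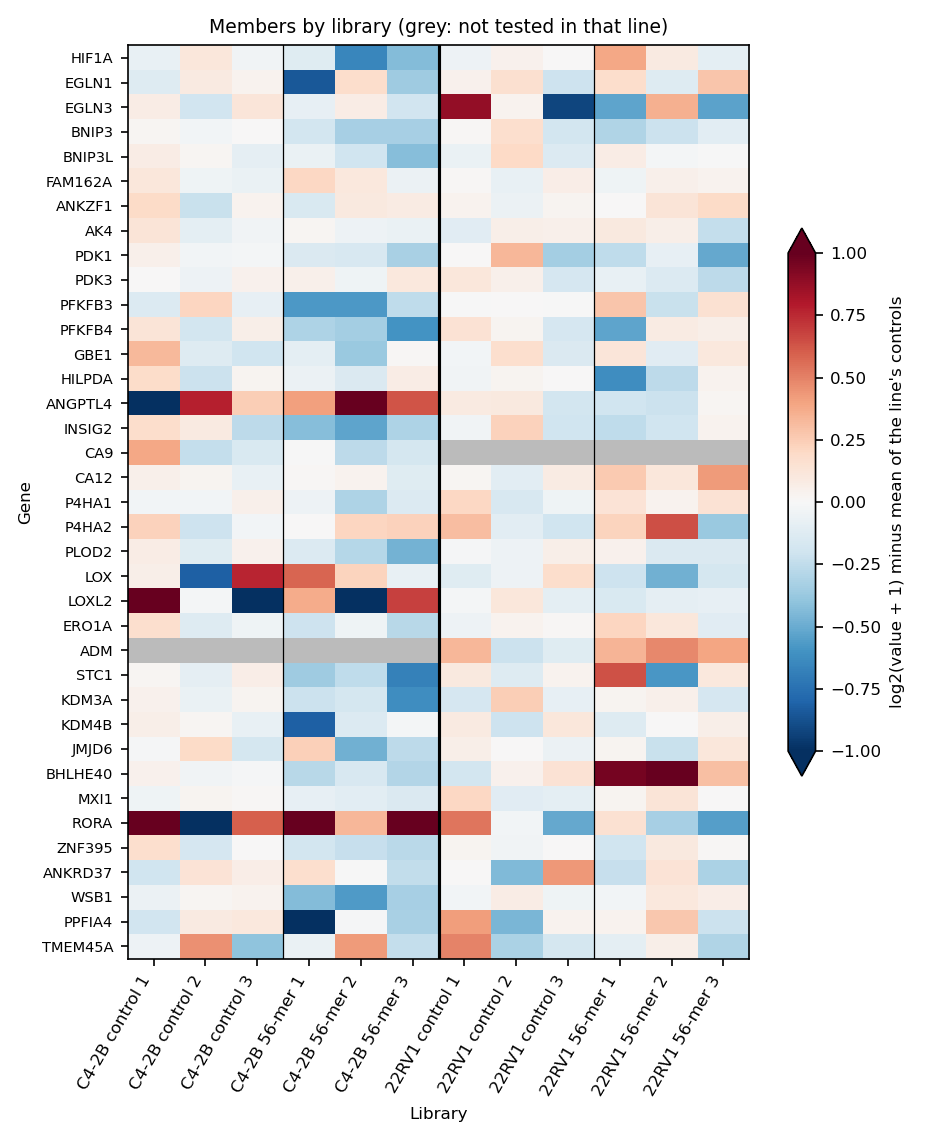
Log2 of the normalized count plus 1 in every library, minus the mean of the 3 controls of the same line, for the 37 genes in role order; blue is lower, red is higher, colours saturate at 1 in either direction, and grey marks a gene not tested in that line. In the C4-2B 56-mer columns 25, 26 and 28 of 36 genes are below the control mean, and in the 22RV1 56-mer columns 16, 16 and 17 of 36.

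A limma fit of the 12 libraries together compared the 56-mer change between the lines, as the 22RV1 change minus the C4-2B change. Of the 35 members measured in both lines 0 were called, as among all 15527 genes (0%), where 1227 (7.9%) had an unadjusted p under 0.05. The difference was positive for 25 of the 35 (71.4%, against 51.8% of all genes), with a median of 0.20 against 0.01. An unadjusted limma p under 0.05 was reached by 4 members, all positive, against 4.15% of all genes on that side and 3.75% on the other. They were BHLHE40 (1.29 ± 0.37, SE), PFKFB3 (0.54 ± 0.19), HIF1A (0.53 ± 0.18) and WSB1 (0.49 ± 0.12), each with a limma adjusted p between 0.534 and 0.546. After the GC and length correction these 4 differences were 1.3, 0.55, 0.39 and 0.37, and the median of the members was 0.12. An unadjusted limma p under 0.05 was then reached by 6 members, 1 of them negative. A different response of the 2 lines was not shown for any single member. DESeq2 and edgeR on the recovered reads also called 0 members in this comparison, and DESeq2 gave no adjusted p for 27 of the 35.

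The authors' deposited table of their own comparison was set beside these values. For C4-2B it listed 29 of the 37 members with a negative log2 fold change, 8 with an unadjusted p under 0.05 and 0 with an adjusted p under 0.05, and its sign was that of the limma change for 36 of the 36 tested members. For 22RV1 the authors' deposited table listed 20 of 37 as negative, 1 with an unadjusted p under 0.05 and 0 adjusted, with the same sign for 35 of 36. The authors' adjusted p was at or next to its upper limit for every member in both lines, so it does not rank them. Both comparisons used the same libraries, so the shared signs are not independent evidence.

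Other genes of the oxygen response were taken from 3 lists. Of 17 tested genes of oxygen sensing and control of the factor, 11 were higher, 6 lower and 0 called in C4-2B (median log2 change 0.03). The coactivator EP300 had all treated libraries below all controls there (-0.41 ± 0.14, limma adjusted p = 0.397), and SIAH2, a ubiquitin ligase for the hydroxylases, had all of them above (0.25 ± 0.12, limma adjusted p = 0.552). Of 17 tested glycolysis genes, 7 were higher, 10 lower and 0 called in C4-2B (median -0.04). The glucose transporter SLC2A1 (-0.50 ± 0.10, limma adjusted p = 0.054), the hexokinase HK2 (-0.38) and the phosphofructokinase PFKP (-0.23) were lower without overlap, and the pyruvate kinase PKM (0.11) was higher without overlap. These median values were nearer to 0 than that of the members.

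Of 12 tested oxygen-regulated genes of other functions, 3 were higher and 9 lower in C4-2B (median -0.19), and 1 was called. This was VEGFA, the angiogenic growth factor and best known target of the pathway, which fell from 6716, 7032 and 7208 in controls to 5149, 5093 and 5664 with 56-mer (log2 change -0.40 ± 0.07, limma adjusted p = 0.0241). This call was lost with edgeR, which called 0 genes in C4-2B, and limma called 0 genes when any C4-2B library other than 56-mer 1 was left out. The stress gene NDRG1 (-0.21) and the atypical cyclin CCNG2 (-0.42) also had all treated libraries below all controls. In 22RV1 the sensing list had 10 genes higher and 8 lower of 18 tested (median 0.02), the glycolysis list 8 and 10 of 18 (-0.01) and the list of other functions 13 and 3 of 16 (0.10), and 0 genes of them were called. IGFBP3, a binding protein of insulin-like growth factors, had an unadjusted p under 0.05 there and was higher in all treated libraries (0.18 ± 0.08, limma adjusted p = 0.9996).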

How the data were processed

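RNA sequencing was run on total RNA from 12 libraries in 4 groups of 3. The authors deposited, per cell line, 1 table of normalized counts per gene symbol and 1 table of their own comparison. The normalized values are a signal that the authors made from read counts with a size factor for each library: 100% of nonzero values were, to within 0.01, whole multiples of that library's smallest step. The submitters' processing notes name DESeq, with aligner, genome build and annotation not given in the sources used here. The deposited comparison tables hold, per the file headers, log2 fold changes, p-values and a Wald score, of which the log2 values and p-values were used. An entry without a symbol (1 per table) was left out.

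Genes that reached a normalized count of 10 in 3 or more of a line's 6 libraries entered a limma fit (version 3.58.1, R 4.3.3, trend and robust variance) on log2(value + 1), two-sided, with Benjamini-Hochberg adjustment over all genes tested. The difference between lines was a contrast in 1 fit of the 12 libraries. Levels between lines used recovered reads scaled to 1000000 per library (RPM), and levels between genes also exonic length from GENCODE 29. The main limma fit of each line was tested on simulated counts, and the other steps were not. The simulated libraries held no trend with GC content or length, unlike the real ones. The outcome is not given here, and no result above rests on it. Alternatives were quantile normalization, equal column totals, no filter, a mean filter of 50, a pseudocount of 0.1 or 10, no trend or robust variance, an adjusted p of 0.01, limma-voom, DESeq2 1.42.0 and edgeR 4.0.16 on recovered whole reads, a correction for each library's trend (lowess, span 0.3) with GC content and transcript length, which matched 96.1% and 95.5% of tested genes in C4-2B and 22RV1, and leaving out each library. edgeR called 0 genes in C4-2B and 2 in 22RV1. Where an omission left 2 libraries in a group, their spread was pooled with the other group.

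Every library value is given for members with an unadjusted p under 0.05 in any comparison, for those at least 5-fold apart between the control groups, and for HIF1A, EGLN1, EGLN3, CA9, BNIP3, ADM, PDK1 and P4HA1, and the others by their change. From the other pathway lists at most 4 genes each were named, by the same threshold. The members, the lists and the tests were chosen with earlier results of these data known. Counting intervals are not given, because replicates differed by more than counting error.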

Additional observations from a re-analysis of the deposited data

How the results depend on the processing

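The limits of these values lie in the 3 libraries per group. Among all genes in C4-2B, limma called 11, and 34 with no filter, 20 after the GC and length correction, 42 with DESeq2, 0 with edgeR, 1 without trend or robust variance and 0 at an adjusted p of 0.01. Leaving out a C4-2B library gave 0 to 81 calls, 81 without 56-mer library 1 and 0 without any of the others, and the cause was not tested. Of the members 0 were called, and 1 with quantile normalization, equal totals, no filter or the GC and length correction (BNIP3 each time), 2 with DESeq2, and 0 to 3 when a library was left out. In 22RV1 limma called 2 genes, and 11 with no filter, 7 after the correction, 4 with limma-voom, 0 without trend or robust variance, 0 at an adjusted p of 0.01 and 0 to 11 when a library was left out (11 without 56-mer library 3), with 0 members under each of these alternatives. The median change of the 22RV1 members ran from -0.0596 to 0.0233 over these omissions, and the number of members with all 56-mer values below all controls from 1 to 6 (6 without control 3 and 5 without 56-mer library 3), beside 4.58% of all genes with the 6 libraries and 8.86% to 11.1% with 5. The same number in C4-2B was 14, and 15 to 17 without a library, beside 7.08% of all genes and 11.5% to 13.3%. These omissions for the counts of separated groups, and the corrected and reduced values for the medians of the role groups, were chosen after seeing the data. The difference between the lines was called for 0 genes, for 1 with quantile normalization, no trend or robust variance, limma-voom or edgeR, for 4 with DESeq2, for 5 with no filter or the correction, and for 0 to 13 when a library was left out (13 without C4-2B 56-mer library 1), with 0 members throughout.

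Changes of sign were seen for members that had not passed the test, and the list below covers those members whose every library value is given. Others turned as well: TMEM45A in 22RV1 went from -0.11 to 0.14 without control library 1. The median of the C4-2B lipid genes went from -0.04 to 0.05 without C4-2B control library 1. In C4-2B CA12 was 0.0224 after the correction. Over the omissions of a library CA12 ran from -0.0643 to 0.0235, CA9 from -0.268 to 0.0468, ANKRD37 from -0.128 to 0.0809 and LOXL2 from -1.24 to 0.527. In 22RV1 BNIP3L was -0.000492 with equal totals and -0.0109 after the correction, FAM162A was -0.0017 and -0.00591 under the same settings, and PPFIA4 was -0.00527 with limma-voom, -0.00787 with DESeq2 and -0.00876 with edgeR. Over the omissions in 22RV1 BNIP3L ran from -0.0508 to 0.114, FAM162A from -0.0234 to 0.0467, PPFIA4 from -0.197 to 0.238, EGLN3 from -0.694 to 0.205, RORA from -0.503 to 0.023, KDM3A from -0.11 to 0.0955, ANKRD37 from -0.357 to 0.0798, HIF1A from -0.00449 to 0.239, PFKFB3 from -0.0322 to 0.216 and PFKFB4 from -0.235 to 0.0707. The difference between lines for FAM162A was 0.00236 with quantile normalization. Over the omissions it ran for LOXL2 from -0.637 to 1.13, EGLN3 from -0.631 to 0.268, PDK1 from -0.243 to 0.0961, BNIP3 from -0.0175 to 0.156 and ANKRD37 from -0.33 to 0.107. No paired analysis was possible because no label ties a library of one group to a library of another, and replicate numbers here only follow the order of the records.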
